A study of Mus musculus with 12 samples.

Results

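The subject is a set of 10 genes that encode the enzymes and transporters of mitochondrial fatty acid oxidation in the liver: Cpt1a, Cpt2, Slc25a20, Acadm, Acadl, Acadvl, Hadha, Hadhb, Acaa2 and Eci1. They were chosen by gene symbol, and all 10 were found among the 15140 genes of the count table. Liver messenger RNA was sequenced after polyA selection in 12 samples from male mice, 6 samples from mice lacking prohibitin 1 in adipocytes (Phb1adipo-/-, labelled Phb1 KO and called KO here) and 6 from wild-type (WT) mice. All mice of both groups ate a high-fat diet (60 kcal% fat) for 3 months from 7 to 8 weeks of age. Prohibitin 1 is a scaffold protein of the mitochondrial inner membrane, and its deletion was directed to fat cells, so the genotype labels cannot be checked in liver RNA. The labels name neither the promoter that drives the deletion nor the mouse behind each library, so p-values cover only the variation among these 12 libraries, which may be technical.

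Mitochondrial fatty acid oxidation shortens fatty acids by a pair of carbons per turn and feeds the respiratory chain and ketone body production. Long-chain acyl groups cannot cross the inner mitochondrial membrane as CoA esters, so a carnitine shuttle carries them in, and a cycle of dehydrogenation, hydration, dehydrogenation and thiolysis then shortens them. In the liver the pathway is induced by fasting and by fatty acids through the nuclear receptor PPAR alpha, and malonyl-CoA, the first product of fat synthesis, inhibits its entry step.

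None of the 10 genes passed the test of KO against WT by edgeR, where 2.64% of all genes tested did, and none of the 10 had KO and WT libraries that did not overlap. The KO level was lower on average for 8 of them and higher for Acadvl and Acaa2, with a median log2 fold change of -0.14 over the 10, against 0.00311 over all 15000 genes tested. Without WT library 1 that median was -0.08, without WT library 2 it was -0.09, and without WT library 6 it was -0.21. The largest differences were in Cpt1a, the entry enzyme, at -21.3% in KO, in Acadm at -18.9% and in Eci1 at -18.4%, as percent change of the fitted level. Within WT the genes varied together, and 3 WT libraries (1, 2 and 4) held more of most of them than any KO library.

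Total counts ran from 34121087 to 37973022 per library in KO and from 30348123 to 40828767 in WT, and the 10 genes had between 3208 and 38163 counts each per library, so that counting error was small beside the spread between libraries. Levels are read counts scaled to library size as CPM with library sizes adjusted by the trimmed mean of M-values (TMM). Genes were tested across the whole table by edgeR's quasi-likelihood test with Benjamini-Hochberg adjustment, and a gene was called at an adjusted p under 0.05. In all, 396 of 15000 genes were called (2.64%), 224 of them lower in KO (1.49%), and 3184 had an unadjusted p under 0.05 (21.2%). Of the 10 oxidation genes, 0 were called by edgeR, 0 by limma-voom and 1, Cpt1a, by DESeq2, while 2 had an unadjusted edgeR p under 0.05. DESeq2 called 1236 genes (8.24%) and limma-voom 394 (2.63%). The edgeR count of all genes depended on single libraries: leaving out KO library 2 gave 235, and KO library 6 gave 86. Leaving out a WT library gave 46 for number 2, 25 for number 4, 89 for number 5 and 700 for number 6. WT library 6 had the fewest counts of the 12 libraries, 30348123. It also held the lowest WT level of 9 of the 10 oxidation genes, and the call that it changed, that of Cpt1a, is given with and without it.

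The tissue label was checked against liver and other markers. Of 9 measured hepatocyte markers, such as Alb and Apoa1, 0 were called by edgeR, 0 by DESeq2 and 0 by limma-voom, with 0 at an unadjusted p under 0.05 and a median log2 fold change of 0.04. Their summed level ran from 72387 to 97854 CPM in KO and from 69781 to 100241 CPM in WT. Of 15 macrophage markers 3 fell, and their summed level was 213 to 416 CPM in KO and 356 to 568.1 CPM in WT. The 8 measured skeletal muscle markers summed to 5.13 to 15.7 CPM in KO and 6.42 to 45.6 CPM in WT, highest in WT library 6. In the table were 4 of 10 adipocyte markers, without Adipoq and Plin1. These 4 summed to 68.0 to 171 CPM in KO and 98.7 to 133 CPM in WT, with 0 called by edgeR. Among them Cfd ran from 0.863 to 41.0 CPM in KO and from 2.98 to 18.1 CPM in WT. Fewer cells of a type and less RNA per cell cannot be told apart in these bulk samples.

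The first step of the carnitine shuttle is carnitine palmitoyltransferase 1A in the outer mitochondrial membrane, the step inhibited by malonyl-CoA. Its gene, Cpt1a (ENSMUSG00000024900, chromosome 19, 3322334 to 3385733, GRCm38), had, in the order of replicates 1 to 6, 566, 631, 574, 619, 480.3 and 491 CPM among KO libraries. In WT the values were 702, 858, 593, 769, 789.6 and 557 CPM. WT libraries 3 and 6 lay within the KO range and the other 4 WT libraries above it, and the 2 lowest KO values, in libraries 5 and 6, were below the whole WT range. The means were 560.3 ± 63.1 CPM in KO and 711 ± 117 CPM in WT (± SD, 6 libraries each), a log2 fold change of -0.34 ± 0.11 (SE; 95% interval -0.59 to -0.10; edgeR, adjusted p = 0.111, unadjusted p = 0.00969). Without WT library 6 the log2 fold change was -0.41 and was called (edgeR, adjusted p = 0.0484), and with DESeq2 the adjusted p was 0.0460, over a range of adjusted p from 0.0460 to 0.227 across 19 alternatives. The authors' deposited table gives Cpt1a a log2 fold change of -0.34 and an adjusted p of 0.236.

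**Figure D1:**
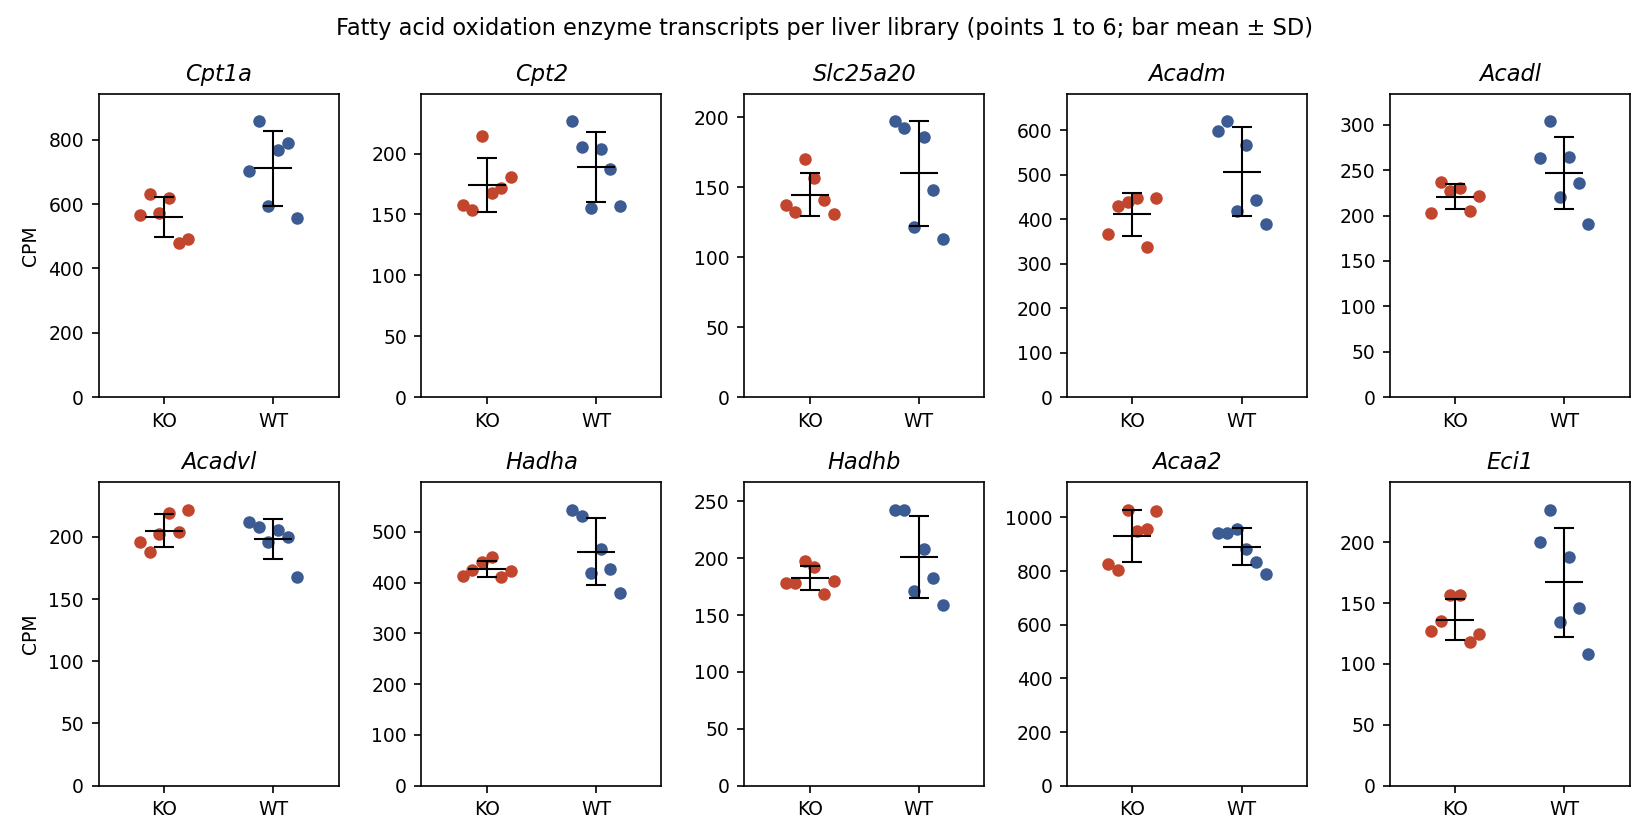
Levels of the 10 fatty acid oxidation genes in CPM (vertical axes from 0) in 6 KO libraries (red, left) and 6 WT libraries (blue, right), with points in the order of library 1 to 6 and bars at the mean ± SD. KO and WT libraries overlap for every gene, and WT library 6 is the lowest WT point for 9 of the 10.

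The carnitine-acylcarnitine translocase, encoded by Slc25a20, carries the acyl group through the inner membrane, and carnitine palmitoyltransferase 2 (Cpt2) returns it to CoA in the matrix. Slc25a20 (ENSMUSG00000032602, chromosome 9, 108662088 to 108684641) had a lowest, median and highest level of 131, 139 and 170.0 CPM in KO and 113, 167 and 197 CPM in WT. Its WT libraries spread more widely than the KO libraries on both sides (log2 fold change -0.14 ± 0.14 SE, 95% interval -0.44 to 0.15; edgeR, adjusted p = 0.592). Cpt2 (ENSMUSG00000028607, chromosome 4, 107903981 to 107923610) had 153, 169.7 and 214 CPM in KO and 155, 196 and 227 CPM in WT. The groups covered nearly the same range (log2 fold change -0.12 ± 0.11 SE, 95% interval -0.35 to 0.11; edgeR, adjusted p = 0.568).

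Acyl-CoA dehydrogenases carry out the first reaction of each turn, and the 3 among the 10 genes differ in the chain length they prefer: very long (Acadvl), long (Acadl) and medium (Acadm). Acadm (ENSMUSG00000062908, chromosome 3, 153922357 to 153944632) had, in the order of replicates 1 to 6, 366, 430.2, 438, 446, 336 and 447 CPM among KO libraries. The WT libraries held 598, 620.0, 419, 567, 444 and 389 CPM. WT libraries 1, 2 and 4 lay far above the others, and the remaining 3 WT libraries lay within the KO range. The means were 411 ± 47.5 CPM in KO and 506 ± 100.3 CPM in WT (± SD, 6 libraries each; log2 fold change -0.30 ± 0.13 SE, 95% interval -0.58 to -0.03; edgeR, adjusted p = 0.196, unadjusted p = 0.0333).

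Acadl (ENSMUSG00000026003, chromosome 1, 66830839 to 66863277) had a lowest, median and highest level of 203, 224 and 237 CPM in KO and 191, 249.9 and 304 CPM in WT. All 6 KO libraries lay inside the WT range (log2 fold change -0.16 ± 0.10 SE, 95% interval -0.37 to 0.05; edgeR, adjusted p = 0.374). Acadvl (ENSMUSG00000018574, chromosome 11, 70010183 to 70015411) had 188, 203 and 222 CPM in KO and 168, 203 and 212 CPM in WT. WT library 6 was its only WT library below the KO range (log2 fold change 0.05 ± 0.07 SE, 95% interval -0.10 to 0.20; edgeR, adjusted p = 0.738). Acadvl shares 1151 annotated exon bases with Dvl2 on the opposite strand, so its reads are uncertain, although Dvl2 averaged only 5.79 ± 1.58 CPM in KO and 6.43 ± 1.06 CPM in WT (± SD, 6 libraries each).

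Later reactions of the cycle for long chains are carried out by the mitochondrial trifunctional protein on the inner membrane, whose alpha subunit (Hadha) hydrates and dehydrogenates and whose beta subunit (Hadhb) is a thiolase. Hadha (ENSMUSG00000025745, chromosome 5, 30118304 to 30155162) had, in the order of replicates 1 to 6, 413, 426, 441, 449.8, 412 and 424 CPM among KO libraries. Among WT libraries it had 544, 532, 419, 465.8, 427 and 379.5 CPM. The KO libraries were close together and lay inside the WT range, which WT libraries 1 and 2 extended upward (log2 fold change -0.11 ± 0.09 SE, 95% interval -0.30 to 0.08; edgeR, adjusted p = 0.512). Hadha shares 75 exon bases with Garem2 on the opposite strand. Hadhb (ENSMUSG00000059447, chromosome 5, 30155248 to 30184593) had, in the order of replicates 1 to 6, 178, 178, 198, 192, 169 and 180.0 CPM among KO libraries. In WT the values were 243, 243, 171, 208, 182 and 159 CPM. It showed the same library order at the top and bottom of WT (log2 fold change -0.14 ± 0.11 SE, 95% interval -0.37 to 0.09; edgeR, adjusted p = 0.476).

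Acaa2 encodes the 3-ketoacyl-CoA thiolase of the matrix, which ends a turn for shorter chains, and Eci1 encodes an enoyl-CoA isomerase needed for unsaturated fatty acids. Acaa2 (ENSMUSG00000036880) had a lowest, median and highest level of 803, 953 and 1029 CPM in KO and 787, 911 and 957 CPM in WT. KO libraries 3 and 6 were its only libraries above the WT range (log2 fold change 0.06 ± 0.09 SE, 95% interval -0.12 to 0.25; edgeR, adjusted p = 0.710). Eci1 (ENSMUSG00000024132, chromosome 17, 24426641 to 24439348) had, in the order of replicates 1 to 6, 127, 135, 157, 156, 118 and 125 CPM among KO libraries. The WT libraries held 200.4, 227, 134, 187, 146 and 108 CPM. All 6 KO libraries lay inside the WT range, and WT libraries 1, 2 and 4 lay above every KO library (log2 fold change -0.29 ± 0.16 SE, 95% interval -0.64 to 0.05; edgeR, adjusted p = 0.305).

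**Figure D2:**
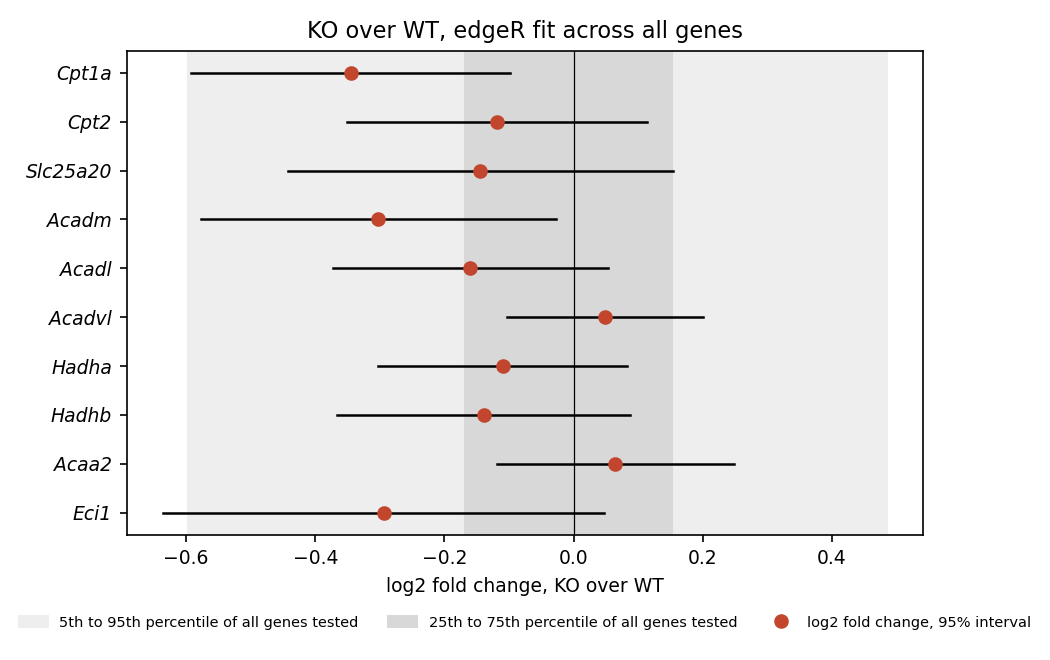
Log2 fold change of KO over WT (horizontal axis) for the 10 genes, with 95% intervals from the edgeR fit across 15000 genes. The grey bands hold the middle of all genes tested (25th to 75th and 5th to 95th percentile), and all 10 point estimates lie within the wider band, with the intervals of Cpt1a and Acadm alone below 0.

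These differences were set beside those of all genes tested. The central portion of all tested genes, from the 25th to the 75th percentile, spanned log2 fold changes of -0.17 to 0.15, and Cpt1a, Acadm and Eci1 lay below it. Of all genes tested 49.4% had a negative fold change and 21.2% an unadjusted p under 0.05, against 8 of 10 and 2 of 10 of the oxidation genes. Groups did not overlap for 2.53% of all genes and for 0 of the 10. The intervals bound the differences that these libraries allow: their lower ends were at a change of -33.6% for Cpt1a, -32.9% for Acadm and -18.9% for Hadha.

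Ratios between pairs of the genes within each library, which do not depend on scaling between libraries, were compared for 4 pairs by an exact two-sided permutation test, whose smallest possible p is 0.00216. The log2 ratio of Hadha to Hadhb counts was 1.23 ± 0.05 in KO and 1.21 ± 0.06 in WT (± SD, 6 libraries each), a difference of 0.02 (exact permutation p = 0.470, 0.470 after Benjamini-Hochberg adjustment over the 4 ratios). It spanned only 1.15 to 1.29 in KO and 1.13 to 1.29 in WT, although Hadhb itself varied more widely in WT. The log2 ratio of Acadvl to Acadm was -0.99 ± 0.17 in KO and -1.33 ± 0.20 in WT, a difference of 0.34 that did not pass (exact permutation p = 0.0130, adjusted 0.0519), with 4 of 6 KO libraries above all WT libraries. The adjusted exact permutation p of this ratio was 0.0346 without KO library 2 and 0.0346 without WT library 3.

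The log2 ratio of Acadl to Acadm was -0.89 ± 0.11 in KO and -1.03 ± 0.10 in WT (± SD, 6 libraries each; exact permutation p = 0.0476, adjusted 0.0952), with 3 of 6 KO libraries above all WT libraries. The log2 ratio of Cpt1a to Cpt2 was 1.69 ± 0.27 in KO and 1.91 ± 0.17 in WT (± SD, 6 libraries each; exact permutation p = 0.0996, adjusted 0.133). KO libraries 3, 5 and 6 were under the lowest WT library for this ratio, at 1.42, 1.49 and 1.44, while KO libraries 1, 2 and 4 lay inside the WT range of 1.63 to 2.08.

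**Figure D3:**
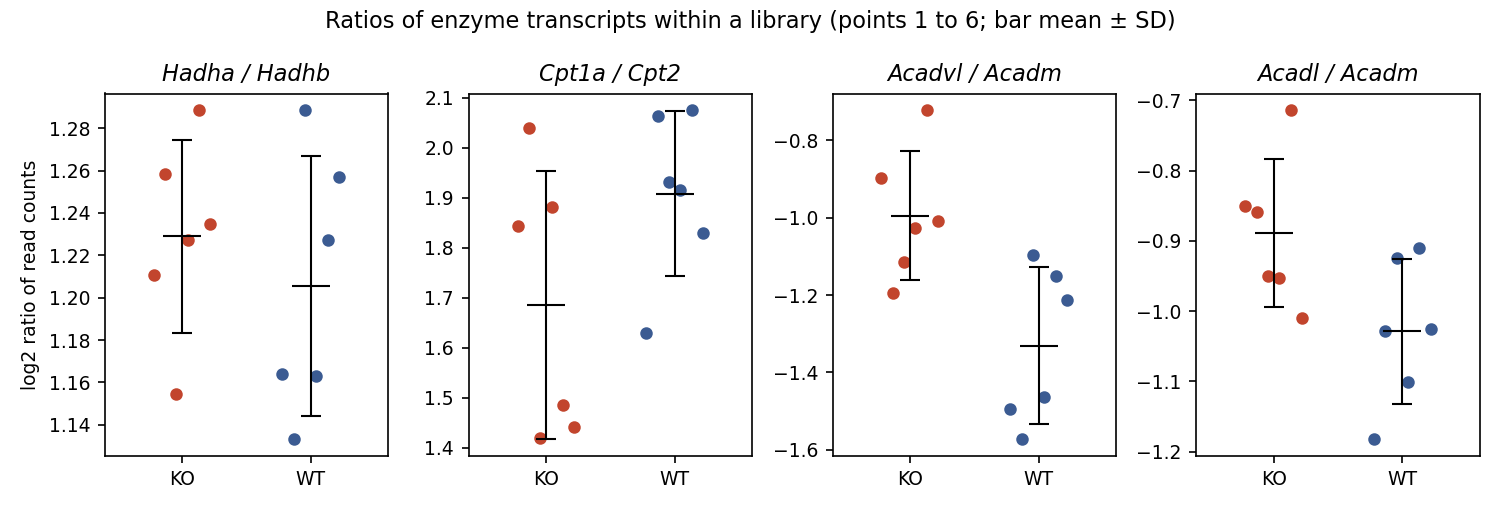
Log2 ratios of read counts within a library (vertical axes, which do not start at 0) for 4 pairs of genes, in 6 KO libraries (red, left) and 6 WT libraries (blue, right), with bars at the mean ± SD. The ratio of Hadha to Hadhb stays between 1.13 and 1.29 in all 12 libraries, while 4 of 6 KO libraries lie above all WT libraries for Acadvl to Acadm.

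To compare levels between genes, CPM were divided by the length of the principal transcript of each gene in kilobases. Acaa2 stood highest, at 614 ± 63.5 CPM per kilobase in KO and 587 ± 45.2 in WT (± SD, 6 libraries each), above every library of every other gene of the set. Acadm followed, at 201 ± 23.2 in KO and 247 ± 49.0 in WT, then Cpt1a at 129.8 ± 14.6 in KO and 165 ± 27.2 in WT. Cpt1a and Eci1 (119.9 ± 14.7 in KO and 147 ± 39.5 in WT), and Eci1 and Acadl (115 ± 7.29 in KO and 129 ± 20.5 in WT), were neighbours whose libraries overlapped within both groups, whereas Acadm and Cpt1a did not overlap in KO. Hadha (106 ± 3.79 in KO and 115 ± 16.4 in WT), Acadvl (94.6 ± 6.07 in KO and 91.5 ± 7.36 in WT), Hadhb (89.1 ± 5.23 in KO and 98.1 ± 17.7 in WT), Slc25a20 (81.1 ± 8.64 in KO and 89.6 ± 20.8 in WT) and Cpt2 (73.5 ± 9.26 in KO and 79.8 ± 12.05 in WT) came last. Among these last 5, neighbours overlapped except Hadha and Acadvl in KO, and Acadvl ranked 7 in KO and 8 in WT. When the length of all annotated exons was used in place of the principal transcript, Acaa2 still stood highest, but the order below it changed, so that order depends on the length used. Acadl moved to rank 2 in KO and 3 in WT, Cpt1a to 5 and 4, Eci1 to 7 and 6, Acadvl to 4 and 7, and Cpt2 to 6 and 5.

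The spread between libraries was larger in WT than in KO for 9 of the 10 genes, all but Acaa2. The coefficient of variation had a median over the 10 genes of 10.5% in KO and 16.2% in WT, whereas over the 12886 genes that averaged 1 CPM or more the medians were 14.9% in KO and 12.6% in WT, and 39.5% of those genes varied more in WT. Hadha had a coefficient of variation of 3.56% in KO and 14.3% in WT, and Eci1 one of 12.2% in KO and 26.9% in WT. The mean log2 CPM of the 10 genes ran from 8.01 in KO library 5 to 8.23 in KO library 3, and from 7.91 in WT library 6 to 8.49 in WT library 2. The WT range of 0.59 was wider than the KO range of 0.22 and than the difference of -0.14 between the group means (8.11 ± 0.09 in KO and 8.24 ± 0.23 in WT, ± SD, 6 libraries each). The 10 genes took 0.337% ± 0.0204 of all counts in KO and 0.376% ± 0.0526 in WT (± SD, 6 libraries each), and the KO range of 0.312% to 0.363% lay inside the WT range of 0.293% to 0.427%.

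The genes varied together from library to library. After each group's mean was subtracted, the 45 pairs of genes had a median Pearson r of 0.72 over 12 libraries (range -0.09 to 0.98), as a description only, since all points share the same libraries and scaling. The median was 0.48 within KO and 0.88 within WT, over 6 libraries each. Hadha and Hadhb were the closest pair (Pearson r = 0.98, Spearman rho = 0.97, and r = 0.97 without WT libraries 1 and 6). Acaa2 was the least like the others, with a median r of 0.43 over its 9 pairs against 0.79 over the pairs without it, and its r with Cpt1a was -0.09.

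The 5 other genes whose log2 CPM followed the mean of the 10 most closely, among 12871 candidates averaging 1 CPM or more, were Acot1 (Pearson r = 0.99, Spearman rho = 0.99), Hsd17b11 (r = 0.97, rho = 0.99), Hsd17b4 (r = 0.96, rho = 0.95), Decr1 (r = 0.96, rho = 0.95) and Dpys (r = 0.95, rho = 0.93), over 12 libraries after subtraction of the group means. They were picked for this likeness out of all candidates, so it is a description. Acot1, an acyl-CoA thioesterase gene whose reads are uncertain because near-identical copies exist, had, in the order of replicates 1 to 6, 16.9, 17.3, 25.1, 22.8, 12.5 and 17.5 CPM among KO libraries. Among WT libraries it had 73.5, 95.4, 17.7, 48.0, 27.3 and 9.50 CPM. It was high in WT libraries 1, 2 and 4 and lowest in WT library 6 (log2 fold change -1.28 ± 0.48 SE; edgeR, adjusted p = 0.159).

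**Figure D4:**
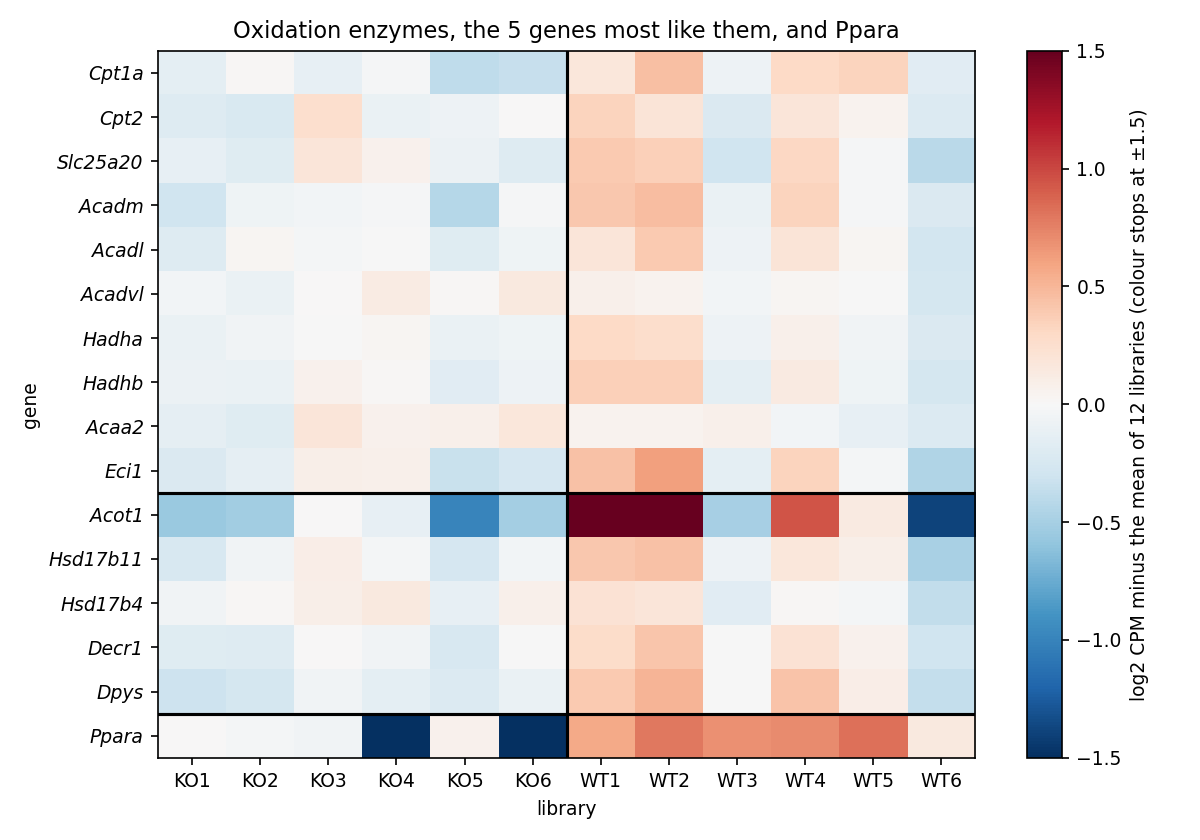
Log2 CPM of each gene minus its mean over the 12 libraries (colour, red above and blue below), for the 10 oxidation genes, the 5 genes most like them and Ppara (rows), in KO libraries 1 to 6 and then WT libraries 1 to 6 (columns). WT libraries 1, 2 and 4 are red and WT library 6 is blue for most oxidation genes, while Ppara is below all WT libraries in 6 of 6 KO libraries.

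Promoter sequences from RefSeq (GRCm38.p6; 250 bases before to 50 after each annotated start) matched 9 of the 10 genes. Hadha and Hadhb, the pair whose levels were most closely correlated, lie head to head with 272 bases between their RefSeq start sites, and their promoter windows share 228 bases (chr5:30155003-30155230, shown on the plus strand, along which Hadhb is read). The promoters of Cpt1a (chr19:3323051-3323350, plus strand) and Acadm (chr3:153944594-153944893, minus strand) are shown because these genes had the largest differences between KO and WT. The RefSeq start sites differ from the GENCODE gene ends for some genes. The GENCODE span of Cpt1a begins at 3322334, before its window. That of Hadha, on the minus strand, starts at 30155162, inside the shared bases. Distances from a start are therefore given for the RefSeq starts only. Capitals mark a nuclear receptor half-site, AGGTCA on either strand.
Hadha and Hadhb: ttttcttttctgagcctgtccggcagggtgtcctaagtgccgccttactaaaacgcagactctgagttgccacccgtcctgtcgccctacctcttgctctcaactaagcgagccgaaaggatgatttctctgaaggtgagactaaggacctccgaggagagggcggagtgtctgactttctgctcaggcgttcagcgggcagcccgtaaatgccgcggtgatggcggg
Cpt1a: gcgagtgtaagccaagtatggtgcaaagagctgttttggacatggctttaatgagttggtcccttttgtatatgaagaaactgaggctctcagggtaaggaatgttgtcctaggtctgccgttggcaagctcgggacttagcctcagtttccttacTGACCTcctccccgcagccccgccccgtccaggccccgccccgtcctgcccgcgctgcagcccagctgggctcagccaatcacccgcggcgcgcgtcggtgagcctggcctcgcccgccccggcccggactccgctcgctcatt
Acadm: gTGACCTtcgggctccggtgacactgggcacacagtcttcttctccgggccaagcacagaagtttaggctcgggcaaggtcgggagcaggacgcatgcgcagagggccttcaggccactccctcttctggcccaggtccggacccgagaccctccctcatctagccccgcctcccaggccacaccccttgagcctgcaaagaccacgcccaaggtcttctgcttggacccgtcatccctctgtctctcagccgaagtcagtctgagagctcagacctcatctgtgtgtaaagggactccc

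The half-site AGGTCA was found in 3 of the 9 promoters, those of Cpt1a, Acadm and Acadvl, and in 16.3% of 32851 mouse promoters of the same length. Counted to the base of the match farthest upstream of the gene, it lies 94 bases before the RefSeq start of Cpt1a, 249 bases before that of Acadm and 87 bases before that of Acadvl. In Cpt1a and Acadm AGGTCA is on the strand opposite to the gene, so the promoter shows TGACCT. Of the other motifs searched on both strands, the letters AGGNCA, any base and AGGNCA again (a relaxed PPAR response element, which can contain the half-site) were found in 0 of the 9 and 0.381% of all, TNAAGGTCA (an oestrogen-related receptor element, which contains the half-site) in 0 and 1.28%, the E-box CACGTG in 0 and 7.15%, and GCGC, any pair of bases and GCGC again (similar to the NRF1 site) in 0 and 6.23%. A match is a description of these letters and no match says only that they are not in this window.

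Other enzymes of mitochondrial oxidation were compared as a group. For this and the lists below, the shares of all genes called were 2.64% by edgeR, 2.63% by limma-voom and 8.24% by DESeq2. An unadjusted edgeR p under 0.05 was found for 21.2% of all genes. Of 16, 0 were called by edgeR, 0 by limma-voom and 1, in the downward direction, by DESeq2, while 3 had an unadjusted edgeR p under 0.05. Their median log2 fold change was -0.07, with 12 of 16 negative. The genes with the smallest p were Acad10 (log2 fold change -0.40 ± 0.12) and Acad11 (-0.26 ± 0.10), members of the acyl-CoA dehydrogenase family, Decr1, the 2,4-dienoyl-CoA reductase for unsaturated chains (-0.23 ± 0.10), and Hadh, the dehydrogenase for shorter chains (-0.22 ± 0.13; all SE, edgeR, adjusted p from 0.0824 to 0.361). Hadh ran from 331 to 414 CPM in KO and from 286 to 540.3 CPM in WT.

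Genes that supply carnitine, activate fatty acids or set the malonyl-CoA level were compared next. Of 12 tested, 0 were called by edgeR, 0 by limma-voom and 1, downward, by DESeq2, with 6 at an unadjusted edgeR p under 0.05 (1 up and 5 down) and a median log2 fold change of -0.18. Slc22a5, the carnitine importer of the plasma membrane, had, in the order of replicates 1 to 6, 24.5, 23.4, 31.5, 32.3, 22.2 and 18.1 CPM among KO libraries. In WT the values were 59.6, 65.1, 26.3, 58.3, 46.2 and 27.7 CPM. Only KO libraries 3 and 4 reached into the WT range, and WT libraries 3 and 6 stood among the KO values (log2 fold change -0.90 ± 0.24 SE; edgeR, adjusted p = 0.0656). Acsl5, an acyl-CoA synthetase gene, had a log2 fold change of 0.33 ± 0.12, Mlycd, which encodes malonyl-CoA decarboxylase, -0.17 ± 0.07, and Acsm5, a medium-chain acyl-CoA synthetase gene, -0.28 ± 0.11 (SE; edgeR, adjusted p from 0.130 to 0.174).

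Among 12 transcriptional regulators of the pathway, 0 were called by edgeR, 0 by limma-voom and 2, downward, by DESeq2, with 4 at an unadjusted edgeR p under 0.05 and a median log2 fold change of -0.14. Ppara, which encodes PPAR alpha itself, had, in the order of replicates 1 to 6, 118, 115, 113, 35.2, 123 and 29.0 CPM among KO libraries. The WT libraries held 174, 203, 189, 191, 208 and 130.0 CPM. Every KO library was lower than every WT library, as in 1.24% of all genes tested, and KO libraries 4 and 6 were far below the other KO libraries (log2 fold change -1.04 ± 0.35 SE, 95% interval -1.80 to -0.28; edgeR, adjusted p = 0.121). KO library 4, the second lowest KO library for Ppara, had the second highest mean level of the 10 oxidation genes in KO. WT library 6 was the lowest WT library for both. Library 5 was the highest for Ppara in each group, yet for the mean of the 10 genes it ranked 6 in KO and 4 in WT. A link between Ppara and the oxidation genes was not tested. Ncor1, a corepressor gene, had a log2 fold change of -0.34 ± 0.10, Sirt3, a mitochondrial deacetylase gene, -0.17 ± 0.07, and Ppargc1b, a coactivator gene, -0.51 ± 0.22 (SE; edgeR, adjusted p from 0.0780 to 0.196).

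Other targets of PPAR alpha included larger differences than the 10 oxidation genes. Of 26, 2 fell by edgeR, 1 by limma-voom, and by DESeq2 6 fell and 1 rose. Of all genes tested, these tools called 2.64%, 2.63% and 8.24%. The 26 had a median log2 fold change of -0.29, with 19 negative. Acot4 and Acot3, acyl-CoA thioesterase genes with close copies, fell, with log2 fold changes of -1.89 ± 0.34 and -4.00 ± 0.79 (SE; edgeR, adjusted p = 0.0230 and 0.0273). Acot4 ran from 27.2 to 45.3 CPM in KO and from 45.1 to 249 CPM in WT, and Acot3 from 0.708 to 4.04 CPM in KO and from 2.10 to 98.2 CPM in WT. Slc27a1, a fatty acid transporter gene (-1.45 ± 0.38), and Cidea, a lipid droplet gene (3.86 ± 1.06), did not pass (SE; edgeR, adjusted p = 0.0658 and 0.0750). Cidea ran from 0.135 to 38.4 CPM in KO and from 0.0752 to 2.30 CPM in WT, and KO libraries 5 and 6 lay inside the WT range. KO libraries 1 and 4 were highest for Cidea and for the adipocyte marker Cfd, and a link between these genes was not tested. Cyp4a10, a fatty acid omega-hydroxylase gene with close copies and named here after its values were seen, ran from 55.1 to 163 CPM in KO, whereas WT libraries 1, 2, 4 and 5 held 1198, 1285, 1082 and 270.2 CPM and WT libraries 3 and 6 held 74.1 and 68.7 CPM (log2 fold change -2.51 ± 0.74 SE; edgeR, adjusted p = 0.0882). The other listed Cyp4a genes, also named after their values were seen, did not pass either (edgeR, adjusted p from 0.130 to 0.477). Cyp4a14, Cyp4a31 and Cyp4a32 had log2 fold changes of -2.64 ± 0.91, -0.87 ± 0.44 and -0.36 ± 0.27 (SE). Cyp4a12a went the other way, at 0.68 ± 0.28 (SE). The summed level of the 26 ran from 10612 to 13196 CPM in KO and from 9823 to 19171 CPM in WT, and the 3 WT libraries above the KO range, 1, 2 and 4, were also the 3 above the KO range in the summed level of the 10 oxidation genes. That summed level was 3172 to 3649.98 CPM in KO and 3009 to 4332 CPM in WT.

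**Figure D5:**
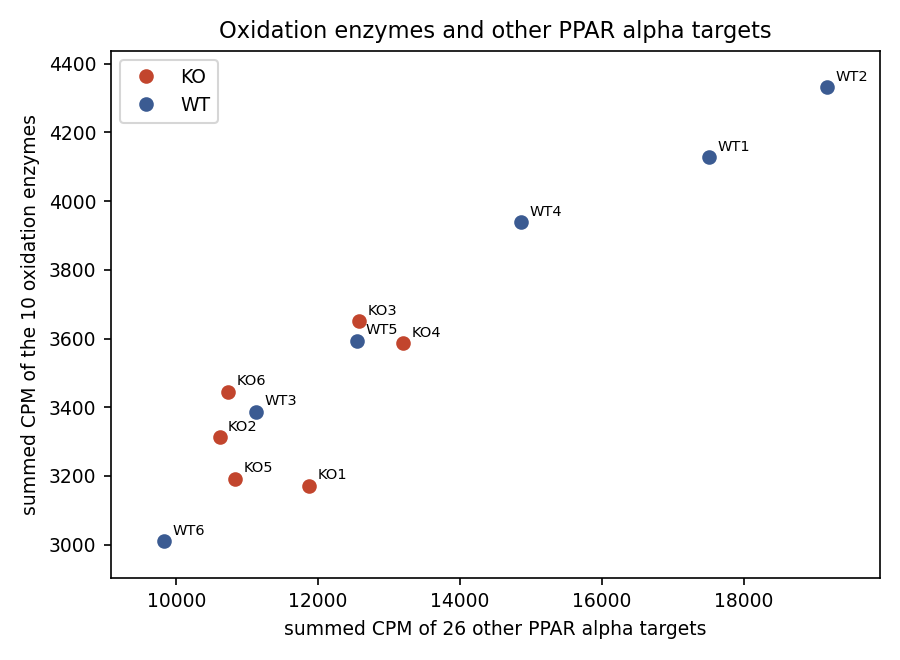
Summed CPM of the 10 oxidation genes (vertical axis) against the summed CPM of 26 other PPAR alpha targets (horizontal axis), 1 point per library, KO red and WT blue (neither axis starts at 0). WT libraries 1, 2 and 4 stand at the top right above all KO libraries, and WT library 6 at the bottom left.

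Peroxisomes shorten very long chains, and the liver turns much of the acetyl-CoA of oxidation into ketone bodies. Of 15 peroxisomal oxidation genes, 0 were called by edgeR, 0 by limma-voom and by DESeq2 1 upward and 2 downward, with 3 at an unadjusted edgeR p under 0.05 and a median log2 fold change of -0.12. Some of these genes, such as Ehhadh and Acaa1b, are also among the PPAR alpha targets. Among the genes with the smallest p were Scp2, which encodes a thiolase and sterol carrier (0.29 ± 0.09), the thiolase gene Acaa1a (-0.37 ± 0.12) and Acox3, an acyl-CoA oxidase gene (0.16 ± 0.08; log2 fold change, SE; edgeR, adjusted p from 0.0882 to 0.253). Of 7 ketone body genes, 0 were called by edgeR, 0 by limma-voom and by DESeq2 1 upward and 1 downward, with 4 at an unadjusted edgeR p under 0.05 and a median of -0.06. The monocarboxylate transporter genes Slc16a1 (0.49 ± 0.14), Slc16a7 (-0.87 ± 0.30) and Slc16a6 (0.37 ± 0.16) did not pass (log2 fold change, SE; edgeR, adjusted p from 0.0780 to 0.209).

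Other transcripts were measured in the same libraries, and none of these groups was tested as a whole. Of 18 clock genes, 1 rose and 2 fell: Cry1, a repressor of the clock (log2 fold change 0.96 ± 0.21), and Hlf and Tef, transcription factor genes of its output (-0.80 ± 0.16 and -0.93 ± 0.20, SE; edgeR, adjusted p from 0.0266 to 0.0360). DESeq2 called 3 clock genes upward and 9 downward, and limma-voom 1 upward and 4 downward. Their summed level was 584 to 873 CPM in KO and 844 to 1335 CPM in WT. The 3 macrophage markers that fell were Cd5l, Adgre1 and Vsig4 (log2 fold change -1.10 ± 0.19, -0.87 ± 0.18 and -0.79 ± 0.18, SE; edgeR, adjusted p from 0.0194 to 0.0368). DESeq2 called 10 macrophage markers and limma-voom 3, all downward. Genes on mitochondrial DNA, whose share was not tested, took 5.86% ± 0.354 of counts in KO and 5.37% ± 0.225 in WT (± SD, 6 libraries each). The 8 skeletal muscle markers had 0 called and 8 at an unadjusted edgeR p under 0.05, all lower in KO, with 5 called by DESeq2 and 0 by limma-voom. The part of all these in the levels of the oxidation genes was not tested.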

How the data were processed

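PolyA-selected liver RNA of male mice was sequenced in 6 KO and 6 WT libraries, and groups and replicate numbers come from the sample titles. Per the file headers and values, the deposited table gives raw whole-number counts per gene. Its log2 fold change, p-value and adjusted p-value of KO against WT are the authors' own, per the file headers. Per the submitters' processing notes, the tools named are DESeq2, featureCounts, HISAT2, SAMtools, Trimmomatic and FastQC, and the build is GRCm38. No source used here gives their versions, the strand setting or the annotation for counting.

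Of 15344 rows, the first per gene was kept (15140 genes), and the 204 repeats held the same counts. TMM scaling and filterByExpr left 15000 genes for the robust quasi-likelihood test of edgeR 4.0.16 in R 4.3.3, with Benjamini-Hochberg adjustment over all of them and a threshold of 0.05. The SE is the absolute log2 fold change over the square root of F, and 95% intervals use the fit's degrees of freedom. The procedure was tested on simulated data. Log2 CPM had a prior count of 0.5. Positions and lengths come from GENCODE M21 and promoters from RefSeq (GRCm38.p6). Exact permutation tests used scipy 1.17.1. Alternatives were DESeq2 1.42.0, limma-voom (limma 3.58.1), RLE size factors, total counts, no filter, a minimum of 1 CPM in 6 libraries, the replicate number as a block, and each library left out. Named were the 10 genes, the 4 genes with the smallest p and all called genes of each list, and the 5 genes most like the 10. A few genes that this rule names are not reported here. The genes and lists were chosen with earlier results of these data known.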

Additional observations from a re-analysis of the deposited data

Results flagged for a closer look

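Among 126 groups of 6 libraries examined (the 10 oxidation genes, the other genes named, the 4 ratios and the summed share, each in KO and in WT), 6 had a lowest or highest library set apart, and about 6.3 would be expected by chance at this threshold. For each, the first value is the distance from that library to its neighbour as a share of the whole spread in the group, and levels are log2 CPM. Of the 10 oxidation genes only Acadvl was among them, with WT library 6 low (0.663; 7.39 against 7.62 to 7.73 in the other WT libraries). The other 5 were Sirt3, low in WT library 6 (0.636; 5.84 against 6.08 to 6.22), Ppargc1b, low in KO library 6 (0.649; 1.25 against 2.17 to 2.67), Slc27a1, high in KO library 4 (0.693; 3.90 against 2.99 to 3.27), Cidea, low in WT library 3 (0.643; -3.49 against -0.47 to 1.21), and Apob, high in WT library 1 (0.673; 12.68 against 12.48 to 12.55).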

How the results depend on the processing

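The 10 fold changes were recomputed under 19 alternatives. Of the 190 values, 188 stayed on the same side of the threshold and 0 changed sign. The exceptions were Cpt1a with DESeq2 and Cpt1a without WT library 6, so that 1 of the 10 genes was called there, and 0 to 1 over all libraries left out. Among all genes the count was 1236 with DESeq2, 257 with total counts only and 25 to 700 with each library left out, against 396. The cause was not tested. The median over the 10 genes ran from -0.21 to -0.08 with a library left out and from -0.16 to -0.12 under the other alternatives. The ratio of Acadvl to Acadm ran from 0.28 to 0.38 with a library left out and passed without KO library 2 and without WT library 3, as given above. The share of counts in the 10 genes differed by -0.0545 to -0.0278 percentage points with a library left out, against -0.0381.

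Replicate numbers are not stated to pair mice, and same-numbered libraries had correlations of -0.19 to 0.36, with 3 of 6 KO libraries closest to their own number. With the replicate number as a block, 374 genes and 0 of the 10 were called, and the median was -0.12. For the 4 ratios, with differences of 0.02, -0.22, 0.34 and 0.14, the exact sign-flip permutation p adjusted over the 4 ran from 0.188 to 0.562. With 6 pairs the smallest unadjusted p is 0.0312, so a single ratio could not pass after adjustment and these values say nothing of stability.

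With 6 libraries a group, the interval of Eci1 reaches from -35.7% to 3.35%, so differences of that size were not resolved.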
